A study of Sus scrofa with 13 samples.

Results

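The genes encoding the cytosolic ribosomal proteins were followed across 13 bulk RNA sequencing libraries of pig liver. Members were defined by symbol: every row whose name begins with RPL or RPS and a digit, plus RPSA, with 10 rows of S6 kinases and the rows RPL7L1 and RPL26L1 left out. They were chosen with earlier results of these data known. This gave 56 of the 35670 rows of the count table, 27 of the large and 28 of the small subunit and RPS19BP1, which encodes an RPS19 binding protein and was kept because its name follows the rule. RPL10L (chr1:176603177-176604116) had 0 counts in every library, which allows up to 3 counts each, and the other 55 passed the filter on low counts. All libraries came from female Yorkshire pigs. The 2 baseline libraries were livers without ischemia or reperfusion and without cells. The 3 ischemic controls had 45 min of warm ischemia with all vessels clamped, 6 h of reperfusion and no cells, and the 4 arterial and 4 portal infusion livers had the same ischemia and reperfusion with 3 M (M, mega) human bone marrow mesenchymal stromal cells (BM-MSCs) per kg, given into the hepatic artery or the portal vein after the clamps were released. The study treats each liver at 6 h as a pig of its own. The paper describes liver biopsies of its experimental pigs both before clamping and at 6 h. Nothing in the labels says which pigs gave the 2 baseline libraries, so these may share a pig with a library at 6 h. The p-values against baseline do not account for such sharing, and the main test estimates the spread over all 4 groups together.

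Ribosomal proteins assemble with ribosomal RNA into a small subunit, which reads the messenger RNA, and a large subunit, which joins amino acids. Their messengers are among the most abundant of any cell and most begin with a pyrimidine tract through which mTOR signalling and LARP1 set their translation. The proteins are made in near equal numbers, and free RPL5, RPL11 and RPL23 can bind MDM2 and so stabilise p53. Many of the genes carry small nucleolar RNAs in their introns, such as SNORD21 in RPL5, and many have processed copies elsewhere in the genome. The libraries kept no strand and the handling of reads that match several places is not stated, so counts of individual genes are uncertain to that extent.

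Ribosomal protein genes took a larger part of all counts in every liver sampled at 6 h than in either baseline liver. The 56 genes held 1.77% of counts in baseline 1a and 1.80% in baseline 2. In the ischemic controls they held 2.36%, 4.67% and 2.29%, with a mean of 3.11% ± 1.35 (SD, n = 3). After arterial infusion the shares were 3.49%, 2.58%, 2.59% and 2.15%, with a mean of 2.70% ± 0.566 (SD, n = 4), and after portal infusion 3.67%, 2.44%, 2.22% and 3.35%, with a mean of 2.92% ± 0.702 (SD, n = 4). All 11 livers at 6 h, between 2.15% and 4.67%, lay above both baseline livers, while the 3 groups at 6 h overlapped. Without genes of the mitochondrial genome the baseline mean was 1.90%, and the livers at 6 h lay between 2.46% and 4.90%. With TMM-scaled library sizes the baseline mean was 1.71%. Baseline 2, at 1.84%, then lay closer below arterial 4, at 1.98%, and control 3, at 2.02%. Arterial 2, at 3.07%, then passed portal 4, at 3.05%.

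**Figure D1:**
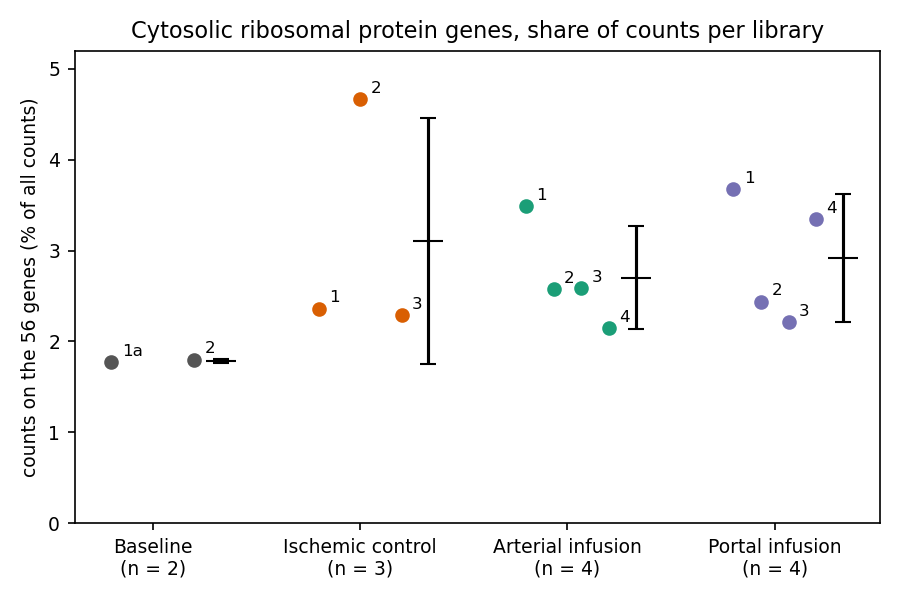
Share of all counts on the 56 genes (y axis, percent) in each of the 13 libraries, by group (x axis). Points are libraries with their replicate number, and the bar beside each group is its mean with the SD. The 2 baseline livers lie at 1.77% and 1.80%, below all 11 livers at 6 h, and ischemic control 2 stands highest at 4.67%.

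Ischemic control 2, arterial 1, portal 1 and portal 4 hold the highest shares of unscaled counts, and the same 4 libraries stood apart from the rest over all genes. Their quality weights in limma's voom, which are low where a library departs from its group over all genes, were 0.435, 0.268, 0.133 and 0.279, and the other 9 lay between 0.862 and 3.61. The liver was recognisable in all libraries by the summed share of 10 hepatocyte markers (ALB, APOA1 and others). Together these markers took 4.81%, 7.01%, 4.08% and 4.82% of counts in the 4 libraries and 8.15% to 13.9% in the other 9. Summed TMM CPM (CPM on library sizes scaled by TMM, the trimmed mean of M values) of 5 neutrophil markers was 37.8 and 41.9 at baseline, 54.1 to 428 in controls, 26.8 to 316 after arterial and 30.7 to 126 after portal infusion. Of 4 erythroid markers it was 37.6 to 67.5, 50.7 to 1018, 86.9 to 497 and 38.0 to 603 in the same order. Of 9 lymphocyte markers it was 29.9 and 29.6 at baseline, 22.9, 86.2 and 74.3 in controls, 70.2, 51.4, 34.9 and 53.5 after arterial and 115, 49.5, 37.4 and 84.8 after portal infusion, above both baseline livers in every liver at 6 h but control 1. In bulk tissue, fewer cells of a type and less RNA per cell cannot be told apart, and the part of these shifts in the results was not tested. Total counts ran from 18975413 to 35949178 per library, and 52 members had at least 1000 counts in every library. For the comparisons with baseline and controls, medians and counts of members that do not overlap are given with and without them, as are the members' fold changes against baseline where they differ by over 1.5 times.

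The first comparison set ischemic controls against baseline. No liver at 6 h went without ischemia. The 45 min of ischemia and 6 h of reperfusion therefore cannot be told apart from anesthesia, surgery and time. None of the 55 tested genes passed the threshold (edgeR's quasi-likelihood test, Benjamini-Hochberg adjusted over 16481 genes, smallest adjusted p of a member 0.978), beside 0% of all genes. The fitted log2 fold change was above 0 for 54 members, against 50.2% of all genes, with a member median of 1.05 and a median of 0.005 over all genes. An unadjusted p under 0.05 was reached by 19 members, all higher, against 3.16% of all genes in that direction and 1.21% in the other. It was reached by 26 in DESeq2 over all 13 libraries and 16 in limma's voom with quality weights, which both called 0 after adjustment. DESeq2 over only the groups compared gave 23 and also called 0 members, with 0.0906 as the smallest adjusted p of a member. The paper, using DESeq2 and an adjusted p under 0.05, reports differentially expressed genes between baseline and 6 h. The 19 became 0 without control 2 and without either baseline liver, and 31 without control 3. For 34 members all 3 controls exceeded both baseline livers, which was so for 15.2% of all genes. Without control 2 the median fell to 0.39 with 52 members above 0, and without the 4 libraries of low weight to 0.37, where 34 members did not overlap against 21.9% of all genes.

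Setting all 11 livers at 6 h against the 2 at baseline uses every infused liver too, and gave a similar picture with a smaller median. It shares the baseline livers and the controls with the first comparison, so the 2 are not independent. The fitted fold change weighs the groups at 6 h equally and not the livers. All 55 members had a log2 fold change above 0, against 49.5% of all genes, with a median of 0.85 against -0.01 over all genes. For 26 members all 11 livers exceeded both baseline livers, against 3.25% of all genes, and 0 members lay below both throughout, against 3.8% of all genes. Without the 4 libraries of low weight the median was 0.52 and 28 members did not overlap, against 5.29% of all genes. The edgeR test again called 0 members (0% of all genes, smallest adjusted p of a member 0.860), with 13 at an unadjusted p under 0.05, all higher, against 2.85% of all genes in that direction and 1.93% in the other. DESeq2 and voom also called 0, with 27 and 40 members at an unadjusted p under 0.05. In edgeR the 13 became 1 without baseline 1a, 0 without baseline 2, 7 without control 2 and 6 without portal 4, and 20 and 21 without control 1 and control 3. By subunit, the median was 0.83 over 26 large and 0.81 over 28 small subunit members, and the number above all baseline values was 14 and 11.

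**Figure D2:**
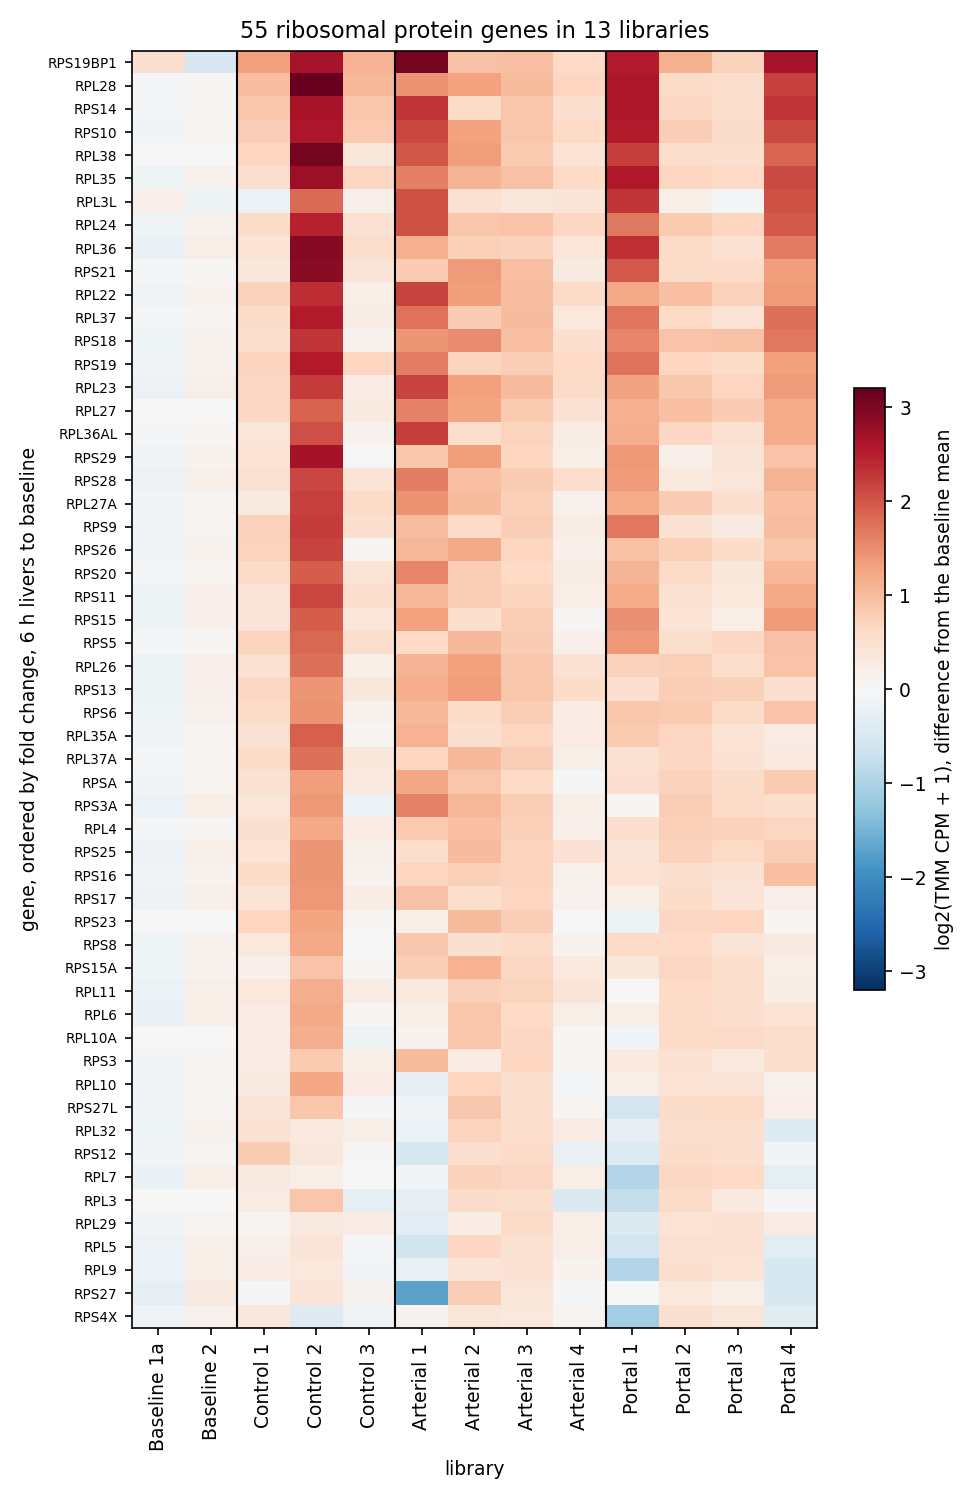
Difference of log2(TMM CPM + 1) from the mean of the 2 baseline livers (colour) for the 55 tested genes (rows, ordered by their fold change between livers at 6 h and baseline) in the 13 libraries (columns). Ischemic control 2, arterial 1, portal 1 and portal 4 are dark red in the upper rows, and arterial 1, portal 1 and portal 4 are blue in several of the lowest rows.

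Large subunit genes were 3 of the 4 members with the highest fold change between controls and baseline. RPL28 (chr6:59556586-59559337, Sscrofa11.1 by RefSeq) stood at 262 and 272 TMM CPM at baseline and at 530, 2384 and 555 in controls. After arterial infusion it was 723, 655, 544 and 434, and after portal infusion 1619, 411, 393 and 1220. Every liver at 6 h lay above both baseline livers. Its log2 fold change was 2.11 ± 0.78 (SE) in controls against baseline (adjusted p = 0.978, edgeR) and 1.67 ± 0.70 in all livers at 6 h (adjusted p = 0.860). The former became 1.02 without control 2 and the latter 0.88 without the 4 libraries of low weight. For all livers at 6 h the exact two-sided permutation test gave p = 0.0256, unadjusted, the smallest that 11 livers against 2 allow, and 3 against 2 cannot go below 0.2. RPL38 (chr12:6884899-6889966), known in mice for its part in translating Hox messengers, was at 83.5 and 86.2 TMM CPM at baseline, at 138, 716 and 110 in controls, at 342, 218, 153 and 116 after arterial and at 399, 125, 124 and 310 after portal infusion. Its groups at 6 h did not overlap with baseline either, and its log2 fold change was 1.92 ± 0.82 in controls and 1.57 ± 0.73 in all livers at 6 h, the former 0.54 without control 2 and the latter 0.68 without the 4 libraries. RPL36 (chr2:73286906-73288512) was at 92.2 and 124 TMM CPM at baseline and at 145, 819 and 158 in controls, a log2 fold change of 1.79 ± 0.77. Control 2 stood far above the other controls for this gene, and without it the log2 fold change was 0.49, with both remaining controls above baseline.

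Among small subunit genes RPS14 (chr2:151430047-151433951), which is lost in a subtype of myelodysplastic syndrome, was at 266 and 283 TMM CPM at baseline and at 503, 1718 and 507 in controls. After arterial infusion it stood at 1334, 423, 509 and 393, and after portal infusion at 1645, 438, 407 and 1331. All 11 livers at 6 h exceeded baseline, with a log2 fold change of 1.60 ± 0.72 (adjusted p = 0.860, edgeR), and of 0.73 without the 4 libraries. RPS19 (chr6:50003198-50010135), the gene most often mutated in Diamond-Blackfan anaemia, was at 278 and 325 TMM CPM at baseline, at 489, 1760 and 488 in controls, at 945, 491, 522 and 467 after arterial and at 1005, 486, 455 and 749 after portal infusion. This too left no overlap with baseline, and the log2 fold change of all livers at 6 h was 1.25 ± 0.56 (adjusted p = 0.860), or 0.68 without the 4 libraries. RPS19BP1 (chr5:8735363-8738808) had the largest fold change of livers at 6 h, 1.88 ± 0.79 and 0.97 without the 4 libraries, at low levels of 15.3 and 7.12 TMM CPM at baseline and 17.0 to 95.4 at 6 h. It also had the widest spread over the 13 libraries, an SD of 1.05 on the log2 scale, against a member median of 0.53 and 0.55 over all genes.

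Other members had fold changes near 0. RPS4X (chrX:58149302-58155179), the X-linked gene of a small subunit protein, was at 466 and 561 TMM CPM at baseline and at 659, 384 and 471 in controls. It was the member with a log2 fold change below 0, at -0.02 ± 0.49, and the sign turned to 0.13 without control 2. RPL7 (chr4:62602430-62605892), RPL9 (chr8:30693198-30699189) and RPS27, a zinc finger protein of the small subunit, had log2 fold changes of 0.16 ± 0.51, 0.16 ± 0.49 and 0.14 ± 0.57, and each turned below 0 without baseline 1a. Without control 2 they were 0.13, 0.063 and -0.0035. RPL29 had the smallest SD over the libraries, 0.31, with 159 and 182 TMM CPM at baseline and 124 to 261 at 6 h.

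**Figure D3:**
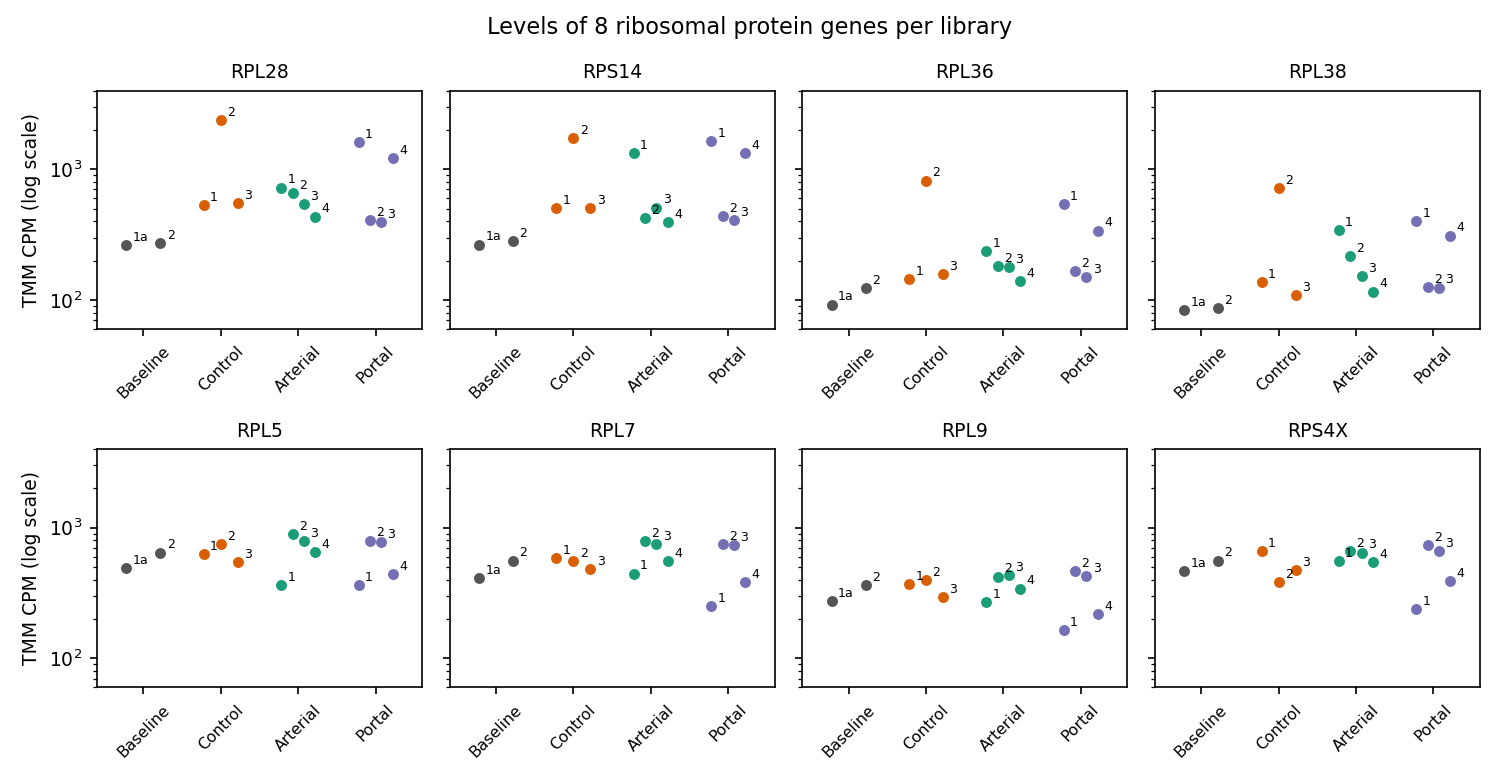
TMM CPM (y axes, log scale) of 8 genes in each library (points with replicate numbers) by group (x axis). In the upper row RPL28, RPS14, RPL36 and RPL38 exceed baseline in every liver at 6 h, and in the lower row RPL5, RPL7, RPL9 and RPS4X overlap with baseline, with portal 1 and portal 4 below the other portal livers.

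Members differed from each other within the livers of a group. Control 2 held the highest level of 51 of the 55 members among the controls, against 34.2% of all genes, and the lowest of RPS4X. Arterial 1 was above the other arterial livers for 28 members and below them for 10, portal 1 was above portal 2 and portal 3 for 29 and below both for 24, and portal 4 for 32 and 23. For all genes those shares were 32.5% and 37.7% in arterial 1, 37.6% and 52.8% in portal 1, and 36.8% and 50.6% in portal 4. In all 4 libraries 22 of the 55 members exceeded the remaining livers of their group, as did 11.7% of all genes. These were 12 large subunit genes, among them RPL22, RPL23, RPL28, RPL35, RPL36 and RPL38, RPS19BP1 and 9 small subunit genes, among them RPS6, RPS14 and RPS19. Members that lay below in all of them numbered 0, against 17.7% of all genes. RPL5, RPL7, RPL9, RPL10, RPL11, RPL29, RPL32, RPS12, RPS27 and RPS27L were below in arterial 1, portal 1 and portal 4. The share of all genes below in these libraries was not taken, but it is at least the 17.7% below in all 4. These 10 of 55 members therefore show no excess over all genes.

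Ratios of counts within a library restate this split and need no scaling between libraries. RPL28, RPS14 and RPS6 are among the 22 members above, and RPL5 is among those below in arterial 1, portal 1 and portal 4. The ratios are therefore not separate evidence of the split. RPL28 to RPL5 was 0.534 and 0.421 at baseline and 0.848, 3.18 and 1.01 in controls. After arterial infusion the ratio was 1.99, 0.737, 0.687 and 0.667, and after portal infusion 4.43, 0.516, 0.508 and 2.77. The 4 libraries of low weight thus carried ratios of at least 1.99, and the other livers at 6 h lay between 0.508 and 1.01. RPS6 to RPL5 ran from 0.923 to 1.29 in the other 9 libraries and was 1.95, 3.09, 2.67 and 2.30 in control 2, arterial 1, portal 1 and portal 4. These are reads per gene of unlike length, so only their change between libraries is informative. These 4 libraries are also those of the lowest hepatocyte marker shares given above, and the part of that in the split was not tested.

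**Figure D4:**
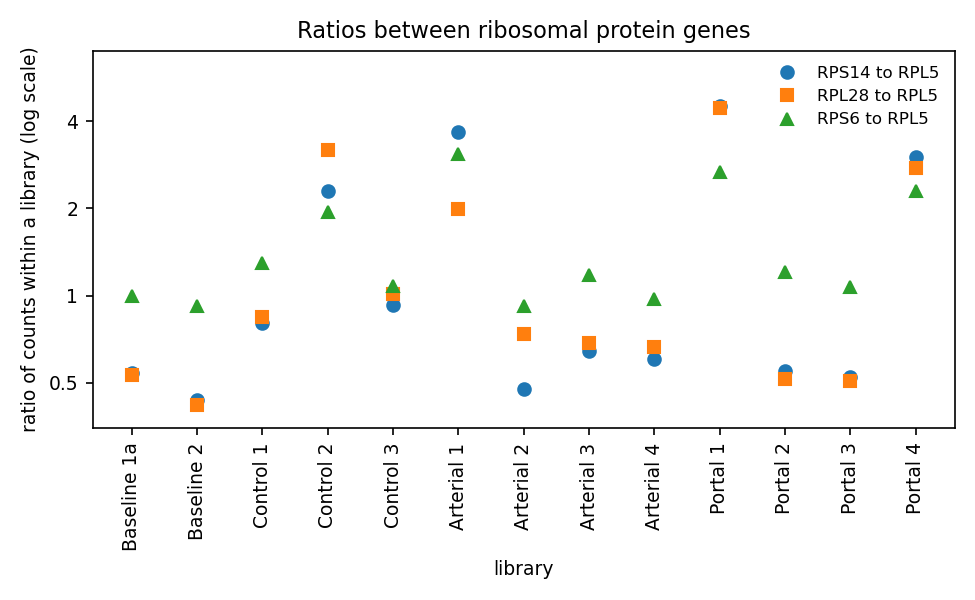
Ratio of counts (y axis, log scale) of RPS14, RPL28 and RPS6 to RPL5 within each of the 13 libraries (x axis). Control 2, arterial 1, portal 1 and portal 4 stand above the other libraries for all 3 ratios, RPL28 to RPL5 reaching 4.43 in portal 1.

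Of the genes whose products can bind MDM2, RPL23 separated from baseline and RPL5 and RPL11 overlapped with it. RPL5 (chr4:124359786-124367612) was at 491 and 646 TMM CPM at baseline, at 625, 751 and 547 in controls, at 363, 889, 792 and 650 after arterial and at 366, 796, 774 and 441 after portal infusion. Groups overlapped throughout, with a log2 fold change of 0.16 ± 0.42 in all livers at 6 h against baseline (adjusted p = 0.954, edgeR), and of 0.32 without the 4 libraries. RPL11 (chr6:81523510-81526925) was at 267 and 353 TMM CPM at baseline and at 310 to 688 at 6 h, a log2 fold change of 0.52 ± 0.37. RPL23 (chr12:23279965-23285538) was at 268 and 354 TMM CPM at baseline, at 486, 1451 and 370 in controls, at 1384, 768, 620 and 474 after arterial and at 748, 563, 494 and 791 after portal infusion. All its livers at 6 h lay above baseline, and its log2 fold change was 1.25 ± 0.56 (adjusted p = 0.860), or 0.74 without the 4 libraries of low weight.

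RPS6 (chr1:203444360-203447643), the phosphorylation target of the S6 kinases, was at 489 and 597 TMM CPM at baseline and at 589 to 1465 at 6 h. Control 3 fell between the baseline livers, and the log2 fold change was 0.77 ± 0.41 (adjusted p = 0.860, edgeR). RPSA, a small subunit protein also known as a laminin receptor, RPL4 and RPL27A held the most counts among the 56 members. Their log2 fold changes at 6 h were 0.74 ± 0.42, 0.71 ± 0.39 and 1.03 ± 0.53, the last of which was 0.60 without the 4 libraries, and RPL4 and RPL27A exceeded baseline in all 11 livers while RPSA did not. RPS3, which lies at the messenger entry of the small subunit, had a log2 fold change of 0.48 ± 0.38 at 6 h against baseline, and an SD of 0.32 over the libraries. RPL10, close to the catalytic centre of the large subunit, was at 692 and 770 TMM CPM at baseline and at 610 to 1722 at 6 h, overlapping. RPL22, which also acts in lymphocyte development, was at 111 and 131 TMM CPM at baseline and at 139 to 627 at 6 h with no overlap, a log2 fold change of 1.30 ± 0.57, or 0.78 without the 4 libraries.

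The pairs of paralogs behaved unlike each other in the libraries of low weight. RPL3L (chr3:40004907-40016702), a form of RPL3 best known from muscle, was scarce, at 2.87 and 2.06 TMM CPM at baseline and at 2.03, 11.15 and 2.87 in controls. After arterial infusion it was 13.2, 3.81, 3.43 and 3.59 and after portal infusion 15.9, 2.94, 2.34 and 13.02, so that the high values were those of the 4 libraries. RPL3 stood at 770 and 769 TMM CPM at baseline and was 1413 in control 2, 646 in arterial 1, 451 in portal 1 and 737 in portal 4. RPS27L, a paralog of RPS27 that p53 induces, was at 40.3 and 45.3 TMM CPM at baseline and at 27.4 to 79.9 at 6 h, and RPS27 at 113 and 169 and at 41.6 to 241. The count ratio RPS27L to RPS27 was 0.434, 0.959, 0.198 and 0.516 in control 2, arterial 1, portal 1 and portal 4 and between 0.269 and 0.438 in the other 9 libraries, so those 4 did not lie to one side. RPL3L to RPL3, by contrast, was above every other library in all of the 4. No paralog passed the test in any comparison.

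The second question was whether livers given BM-MSCs differed in these genes, all 8 infused livers against the 3 controls. The paper instead compared samples with relatively high human B2M, its marker of the infused cells, with controls. The sample labels used here do not give B2M, so all infused livers were taken whatever their content of cells. No member passed (edgeR, 0% of all genes, smallest adjusted p of a member 1.00), 0 had an unadjusted p under 0.05 against 0.734% of all genes higher and 1.41% lower, and DESeq2 and voom gave 0 by either count. For 0 members did the infused livers lie wholly above or below the controls, against 0.206% and 0.407% of all genes. The median log2 fold change was -0.16, with 8 of 55 members above 0 against 47.9% of all genes, whose median was -0.02. Its sign rested on control 2: without it the median was 0.37 with 52 members above 0. Without the 4 libraries of low weight it was 0.28 with 49 above 0, and with voom's quality weights 0.13 with 39 above 0. The arterial and portal comparisons use the same 3 controls. Their medians were -0.14 and -0.21, with 13 and 9 members above 0 (50.8% and 48.1% of all genes), and became 0.36 and 0.36 without control 2. Both called 0 members (0% of all genes) with 0 at an unadjusted p under 0.05. Of all genes 0.625% reached that p higher and 0.94% lower after arterial infusion, and 1.13% and 1.66% after portal infusion. In neither comparison did any member separate the groups, against 1.46% of all genes above and 1.68% below after arterial and 1.27% and 2.45% after portal infusion. Without the 4 libraries of low weight 6 members lay wholly above and 0 below the remaining controls over all infused livers, against 5.12% and 6.97% of all genes. The numbers were then 8 and 1 after arterial infusion, against 7.93% and 9.97%, and 30 and 6 after portal infusion, where 2 livers faced 2, against 20.8% and 22.8% of all genes. Summed TMM CPM of 6 Kupffer cell markers was 526 to 883 at baseline, 965 to 1421 in controls, 589 to 791 after arterial and 539 to 794 after portal infusion, and its part in these comparisons was not tested.

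Members at the ends of the range show the same dependence. RPS29 was lowest at -0.73 ± 0.49 (adjusted p = 1.00, edgeR), with 209, 993 and 155 TMM CPM in controls. After arterial infusion it was at 282, 391, 248 and 178 and after portal infusion at 409, 174, 206 and 294, so all 8 infused livers lay within the range of the controls. RPS21, RPL36 and RPL28 followed at -0.66 ± 0.50, -0.67 ± 0.51 and -0.66 ± 0.52, and all 4 changed to 0.45 to 0.71 without control 2. RPL3L was highest at 0.43 ± 0.72, followed by RPS15A at 0.18 ± 0.31, RPS4X at 0.13 ± 0.37 and RPL7 at 0.11 ± 0.38.

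Arterial and portal infusion were then compared directly. The median log2 fold change, arterial minus portal, was 0.04 against 0.04 over all genes, with 34 of 55 members above 0 against 52.9% of all genes. The edgeR test called 0 members (0% of all genes, smallest adjusted p of a member 1.00), with 0 at an unadjusted p under 0.05 against 1.09% higher and 1.32% lower over all genes, and DESeq2 and voom gave 0 by either count. The arterial livers lay wholly above or below the portal livers for 0 members, against 0.862% and 0.419% of all genes. RPS3A, an early assembling small subunit protein, was highest at 0.46 ± 0.41, with 1619, 1117, 929 and 607 TMM CPM after arterial and 562, 932, 824 and 792 after portal infusion. RPS13 followed at 0.37 ± 0.33, RPL23 at 0.32 ± 0.47 and RPL22 at 0.31 ± 0.47, and the last pair turned below 0 without arterial 1. RPL36 was lowest at -0.71 ± 0.56, then RPL28 at -0.63 ± 0.56, RPL35 at -0.63 ± 0.55 and RPS14 at -0.52 ± 0.59, and all 4 were above 0 without the libraries of low weight, at 0.04 to 0.47 under that setting or voom. The SE of these differences ran from 0.32 to 0.73 on the log2 scale over the 55 members, so the test does not show that the routes left alike levels.

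**Figure D5:**
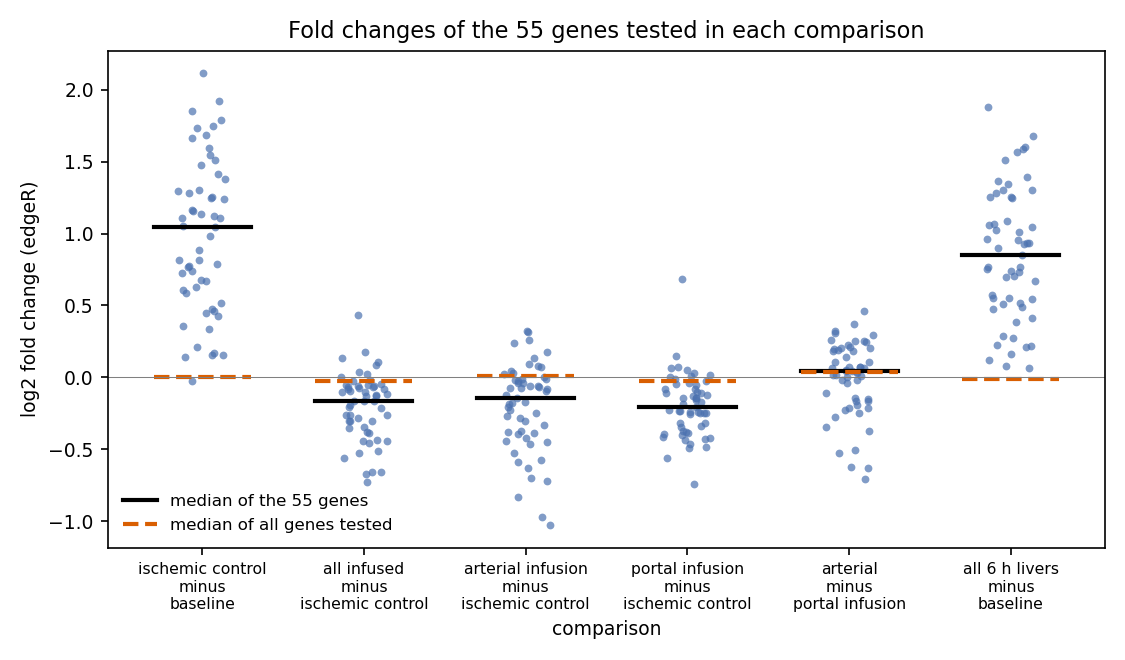
Log2 fold change (y axis, edgeR) of the 55 tested genes (points) in 6 comparisons (x axis), with their median (solid line) and the median of all genes tested (dashed line). The medians are 1.05 for controls and 0.85 for all livers at 6 h against baseline, and between -0.21 and 0.04 in the comparisons among livers at 6 h.

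Neighbouring parts of the translation machinery were described from fixed lists, in each of which 0 genes passed the edgeR test in any comparison. Ribosome components outside the naming pattern lay alongside the family, with 6 of 6 above 0 in controls against baseline and a median log2 fold change of 1.26. RPLP2, of the stalk of the large subunit, was at 2.48 ± 1.07 and FAU, whose product holds RPS30, at 2.37 ± 0.92, and RPLP0, at 0.23 ± 0.49, was the lowest. Without control 2 RPLP2 was at 0.82, FAU at 0.81 and the median at 0.49. A further 9 ribosomal protein rows that carry no symbol in the count table and are named by the reference alone, from RPL14 at 1.27 ± 0.65 and RPL36A at 1.04 ± 0.56 to RPL7A at 0.51 ± 0.42 and RPL23A at 0.27 ± 0.55, were all above 0 with a median of 0.88, or 0.30 without control 2. Among them, named for their known roles, RPL13A was at 0.88 ± 0.49 and RPS27A, made as a fusion with ubiquitin, at 0.58 ± 0.48. Mitochondrial ribosomal proteins had 55 of 68 above 0 and a median of 0.52, from MRPL12 at 2.34 ± 1.17 to MRPS18C at -0.57 ± 0.74. In all livers at 6 h against baseline 17 of these 68 exceeded both baseline livers throughout, against 3.25% of all genes. In controls against baseline without control 2, MRPL12 was at 1.22 and MRPS18C at -0.33. The median of the 68 was then 0.41 with 58 above 0, beside 0.39 for the cytosolic members. For all livers at 6 h without the 4 libraries of low weight it was 0.45 with 67 above 0, beside 0.52.

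Lists of genes that make or regulate ribosomes had medians near or below 0. Of 19 genes listed for sharing the pyrimidine tract, mostly translation factors, 14 were found by name in the count table. Of these 14, 6 were above 0 in controls against baseline with a median of -0.07. They ran from EIF3F, an initiation factor subunit, at 1.83 ± 0.63 to HNRNPA1 at -0.70 ± 0.58, and EIF3F was at 1.04 without control 2. Of 51 ribosome biogenesis genes listed 47 were found by name, and 15 of these 47 were above 0, with a median of -0.32. POLR1D, a subunit of the polymerase that makes ribosomal RNA, was at 1.58 ± 0.75 and its partner POLR1B at -1.10 ± 0.82. Without control 2 the median was -0.44 with 10 above 0, and POLR1D was at 0.66. In all livers at 6 h the median of the biogenesis list was -0.37 with 14 of 47 above 0, beside 0.85 for the ribosomal proteins, and without the 4 libraries -0.17 beside 0.52. Of 25 genes of mTOR and translation control 14 were above 0 in controls with a median of 0.08, which was -0.003 without control 2, led by DDIT4, an mTOR inhibitor induced by hypoxia, at 1.49 ± 0.69. The difference between the lists was not tested.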

How the data were processed

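Poly-A RNA of 13 pig liver samples was sequenced from non-directional libraries. The authors aligned reads with HISAT2 (Sscrofa11.1), used FeatureCounts with Ensembl 110 genes, and deposited raw counts; tool versions, strand and multi-mapping settings are not given in the sources used here. The paper and the labels name different RNA kits. Groups follow the sample labels. Tests used R 4.3.3 and edgeR 4.0.16 (filterByExpr, TMM, quasi-likelihood, 4 groups in 1 fit, 16481 genes, Benjamini-Hochberg threshold 0.05), with DESeq2 1.42.0 and limma 3.58.1 as alternatives, and exact two-sided permutation tests on log2(TMM CPM + 1) for single genes (SciPy 1.17.1). SE is the fold change over the square root of F. Scripts were tested on simulated counts. The members and lists were chosen with earlier results of these data known. Named genes are the 4 highest and 4 lowest in 3 comparisons, the 3 with most counts, the 3 most and least variable, and members of known roles; up to 4 of each other list, from its highest and lowest, with RPL13A and RPS27A added for their roles. RPL39 and RPL39L are not analysed here. Promoter sequences were not used here. Coordinates are from RefSeq, Sscrofa11.1. No count column of a group was a copy of another (chi-square of at least 30.2 per member), which does not show that they came from separate pigs. Whether replicate numbers pair samples could not be told. An SE holds the spread between livers, and the limit for a count of 0 covers counting error alone.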

Additional observations from a re-analysis of the deposited data

Results flagged for a closer look

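A sample far from the others of its group was seen for 3 genes, in each case arterial 1 among the 4 arterial livers. RPL3L stood at 13.2 TMM CPM there, RPS14 at 1334 and RPS19BP1 at 95.4, each with a gap to the nearest liver beyond Dixon's critical share of the group's range. These are 3 of 50 groups looked at, and chance alone flags about 1 in 20. Arterial 1 is among the 4 libraries of low quality weight.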

How the results depend on the processing

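The count of 0 members past the threshold was unchanged under every alternative run in all 6 comparisons. Members at an unadjusted p under 0.05 in controls against baseline numbered 0 to 31 with 1 library left out and 5 to 26 under the other settings. In all livers at 6 h against baseline they numbered 0 to 21 and 8 to 40, and either baseline liver left out brought both counts to 0 or 1. The median log2 fold change of controls against baseline became 0.53 with voom and 0.37 without the 4 low weight libraries, a choice made after the data were seen. That setting gave 0.28, 0.31 and 0.25 for all infused, arterial and portal livers against controls. Leaving out each library in turn gave 0.39 to 1.34 for controls against baseline, -0.47 to 0.37 for infused, -0.42 to 0.36 for arterial and -0.48 to 0.36 for portal livers against controls, -0.07 to 0.17 for arterial against portal and 0.62 to 0.94 for all livers at 6 h against baseline. The baseline share was 1.90% without mitochondrial genes and 1.71% on TMM-scaled totals, and 1.77% to 1.80% with either library left out.

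Signs turned for some named members, none of which passed the test. In controls against baseline RPS27 was -0.019 without the 4 libraries, and RPS4X 0.014 with DESeq2 over those groups and 0.12 without the 4. In infused livers against controls RPS21 was 0.031 with voom and 0.42 without the 4, RPS29 0.023 and 0.35, and RPL36 0.12 without the 4. In arterial against portal livers RPS14 was 0.076 and 0.089, RPL35 0.20 and 0.26, RPL28 0.37 and 0.47 and RPL36 0.041 and 0.10 with voom and without the 4. Leaving out single libraries gave, in controls against baseline, -0.039 to 0.35 for RPL9, -0.062 to 0.38 for RPL7, -0.13 to 0.44 for RPS27 and -0.26 to 0.13 for RPS4X. In infused livers against controls it gave -0.028 to 0.51 for RPS15A, -0.025 to 0.37 for RPS4X, -0.00099 to 0.22 for RPL7, -1.06 to 0.45 for RPL28, -1.11 to 0.71 for RPS21, -1.11 to 0.64 for RPL36 and -1.21 to 0.60 for RPS29. In arterial against portal livers it gave -0.072 to 0.51 for RPL23 and -0.085 to 0.50 for RPL22. Apart from the effect of the libraries left out, the cause was not tested.

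Deviations of same-numbered samples from their group means had correlations of -0.42 to 0.43, with 5 of 16 over 0.1. Of 13 libraries 5 were closest to their own number. The deviations of the 2 baseline libraries mirror each other by construction, so the check cannot decide whether numbers pair samples. With the replicate number as a block, medians were 1.06 for controls against baseline and -0.12, -0.09 and -0.10 for infused, arterial and portal livers against controls, 0.002 for arterial against portal and 1.00 for all livers at 6 h against baseline, where the median of all genes moved to -0.15, -0.10 and -0.17 in the 3 comparisons with controls. With 2 baseline livers and a common biological coefficient of variation of 0.729, precision is set by the number of livers and not by counting.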
